A study of Rattus norvegicus with 10 samples.

Results

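Receptors for adenosine and for the catecholamines adrenaline and noradrenaline were examined in the livers of 10 male rats of the outbred Sprague-Dawley strain. The 5 exposed animals had short-term contact with the effluent of factories that make bulk drugs, and the 5 others are labelled as controls. The labels give neither the dose, the length of exposure nor the age, and each array stands for 1 animal. Members were the probe sets whose platform annotation gives 1 gene symbol, that of a listed receptor, which gave 11 probe sets for 9 genes out of 31042 probe sets and 14224 named genes. The list was chosen by measured values, with the higher Adora1 of exposed livers already known, so the differences between the groups are given here as descriptions and nothing is supported with them.

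Adenosine is released by cells under metabolic load and is also formed outside cells from ATP. Of its receptors, the A1 and A3 subtypes (Adora1, Adora3) couple to inhibitory G proteins and lower cyclic AMP, while the A2 subtypes (Adora2a, Adora2b) couple to stimulatory G proteins and raise it. Alpha-1 adrenergic receptors (Adra1a, Adra1b, Adra1d) signal through Gq and calcium, and beta receptors (Adrb1, Adrb3) through cyclic AMP, and both routes activate glycogen phosphorylase. In adult male rat liver, catecholamines act on hepatocytes mainly through the alpha-1B receptor.

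To show the DNA of the receptors whose values differed most between the groups, the 250 bases before the start that RefSeq gives on assembly GRCr8 are printed for Adora1 and Adora2b, 5′ to 3′ on the gene's strand. Capitals mark the GC box GGGCGG on either strand.
Adora1, chr13:48246832-48247081, minus strand: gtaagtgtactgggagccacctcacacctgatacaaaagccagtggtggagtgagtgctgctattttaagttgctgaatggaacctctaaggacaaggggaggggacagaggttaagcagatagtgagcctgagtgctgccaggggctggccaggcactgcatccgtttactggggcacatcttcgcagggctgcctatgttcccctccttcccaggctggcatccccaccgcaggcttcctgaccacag
Adora2b, chr10:47439462-47439711, plus strand: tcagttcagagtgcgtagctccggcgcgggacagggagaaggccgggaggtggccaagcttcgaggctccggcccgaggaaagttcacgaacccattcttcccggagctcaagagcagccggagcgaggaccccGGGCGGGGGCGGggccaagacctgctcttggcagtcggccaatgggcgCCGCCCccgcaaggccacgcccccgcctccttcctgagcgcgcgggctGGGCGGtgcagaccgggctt
The Adora1 window lies inside the span of the gene (chromosome 13, 48210922 to 48247826) on the same assembly, which reaches farther upstream, whereas the Adora2b window lies just before its gene (chromosome 10, 47439712 to 47456092). GC boxes were found 4 times in the Adora2b window and 0 times in that of Adora1, and 30.5% of 33469 such windows hold at least 1. Searches of both strands for the cyclic AMP response element TGACGTCA (1.59% of windows), its half-site TGACG, which the full element contains (18.2%), the E-box CACGTG (5.59%) and TATAAA (12.9%) found no match in either window. These are matches of letters and not binding sites.

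Adra1b had the highest reading of the receptors in liver. Its probe set averaged 9.39 on the log2 scale over the 10 livers, higher than 92.5% of all probe sets. The other 10 probe sets averaged 3.63 to 6.16, against 5.47 for the median probe set, and 7 of the 11 lay above that median. A probe set's level depends on how well its probes bind as well as on the transcript, so a place on the scale is not an order of RNA amounts between genes.

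Genes that are known from other organs, such as hormones of the pituitary and proteins of sperm, served to show where the low end lies. Their 35 probe sets had a median of 4.32, and all 5 that name Myh1, a myosin heavy chain of skeletal muscle, lay at 8.30 to 12.0. The other 30 probe sets averaged 2.92 to 7.15. Adra1b lay above all 30, the brighter Adora1 probe set had 1 of them above it, and the Adora2a, Adora2b, Adora3 and Adra1d probe sets had 4 or 5. The dimmer Adora1 probe set, Adrb1 and Adrb3 each had 9 above them, and Adra1a had 24. Once Myh1 was set aside, a choice made after seeing the data, the receptors other than Adra1b read within the span of genes that are known from other organs. With Myh1 kept, as planned, the 90th percentile of these genes lay above all 11 receptor probe sets, Adra1b included, and whether these probe sets detected receptor RNA at all was not tested. With each of these genes read by its brightest probe set, 4 of 27 were higher in exposed livers at an unadjusted limma p under 0.05 (3.07% of all probe sets) and 0 were lower (2.39%). They include Cga, the alpha subunit of pituitary hormones, with 5.57 ± 0.04 in exposed and 5.38 ± 0.10 in control livers. Cga differed by 0.18 ± 0.06 (SE), with every exposed animal above every control animal, as for 0.57% of all probe sets. Myh7, a myosin heavy chain of heart, differed by 0.21 ± 0.09 and Myh1 by 0.18 ± 0.14, or 0.0629 without exposed animal 2. The other Myh7 probe set differed by 0.0096, and the other Myh1 probe sets by -0.10 to 0.19.

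**Figure D1:**
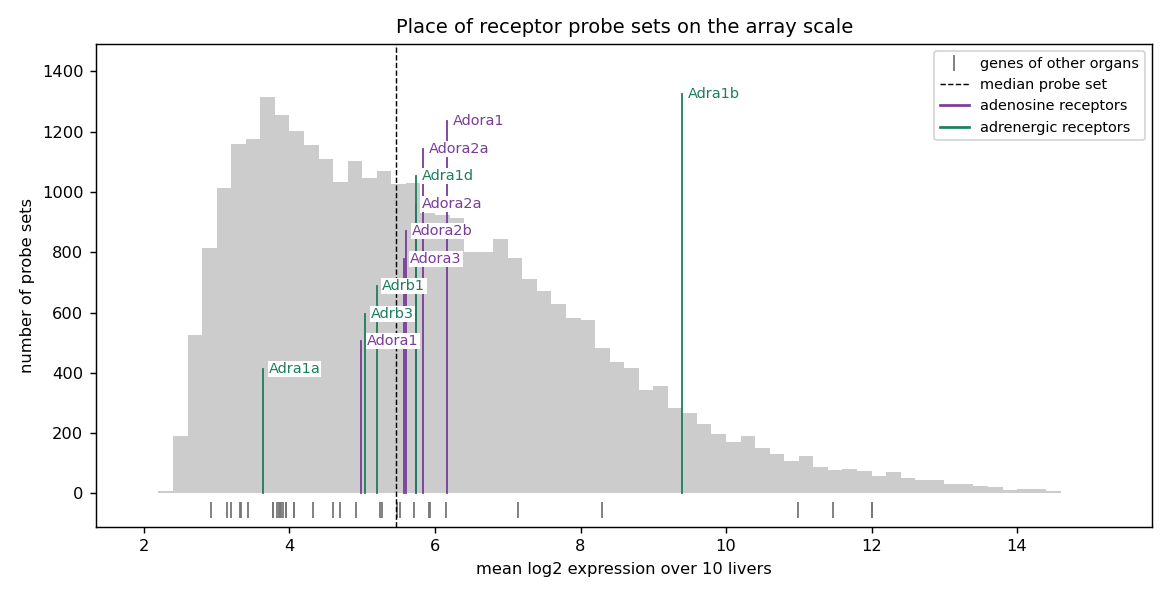
Mean log2 expression over the 10 livers for all probe sets (grey histogram, number of probe sets per 0.2), with a line for each adenosine (purple) and adrenergic (green) receptor probe set and ticks below for genes of other organs. Adra1b stands at 9.39, while the other receptor probe sets lie between 3.63 and 6.16, on both sides of the median probe set at 5.47.

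Adora1, the inhibitory A1 receptor, was higher in exposed livers on both of its probe sets. In whole liver, more cells of a type and more RNA per cell cannot be told apart. The dimmer one, whose name marks a set shared by alternative transcripts of the gene, read 5.48, 5.10, 5.40, 5.04 and 5.06 in exposed animals 1 to 5, against 4.76, 4.73, 4.64, 4.70 and 4.98 in control animals 1 to 5. Every exposed animal lay above every control animal, with exposed animals 1 and 3 the highest and control animal 5 nearest to the exposed group. The means were 5.21 ± 0.21 in exposed and 4.76 ± 0.13 in control livers (SD, n = 5 each), a difference of 0.45 ± 0.10 (SE, 95% interval 0.24 to 0.67) or 1.37-fold.

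The brighter Adora1 probe set read 6.52, 6.38, 6.42, 6.18 and 6.08 in exposed animals and 5.85, 5.996, 5.87, 5.84 and 6.48 in control animals, in the same order. Here the groups overlapped, because control animal 5 at 6.48 was above every exposed animal except animal 1. The 4 other control animals lay below all exposed animals. The means were 6.31 ± 0.18 in exposed and 6.01 ± 0.27 in control livers, a difference of 0.31 ± 0.12 (SE, 95% interval 0.03 to 0.58) or 1.24-fold, and it was 0.42 without control animal 5 and 0.26 without exposed animal 1. For the dimmer probe set, leaving out the same animals gave 0.51 and 0.38.

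Fitted with limma over all probe sets, 0 of 31042 (0.0%) passed an adjusted p of 0.05, the receptors included. At an unadjusted p under 0.05, limma gave 952 probe sets (3.07%) that were higher and 743 (2.39%) that were lower in exposed livers. Among the 11 receptor probe sets there were 2 higher, both of them Adora1, and 0 lower. The brighter of these passed only in part of the alternatives. Its unadjusted limma p was 0.03, and it was 0.05 or more after centring (0.0513), with the replicate number as a block (0.0564) and in 7 of 10 fits without 1 animal (at most 0.0761, without exposed animal 1), whereas that of the dimmer was at most 0.00207 in the same fits. Every exposed animal was above every control animal for 177 probe sets (0.57%) and for 1 of the 11, and below every control animal for 100 probe sets (0.322%) and for 0 of the 11. A larger difference in either direction than that of the dimmer Adora1 probe set was found in 0.332% of all probe sets, and for the brighter one in 1.22%. As Adora1 was chosen for this difference, nothing is read from these p-values, counts and shares, for either of its probe sets.

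**Figure D2:**
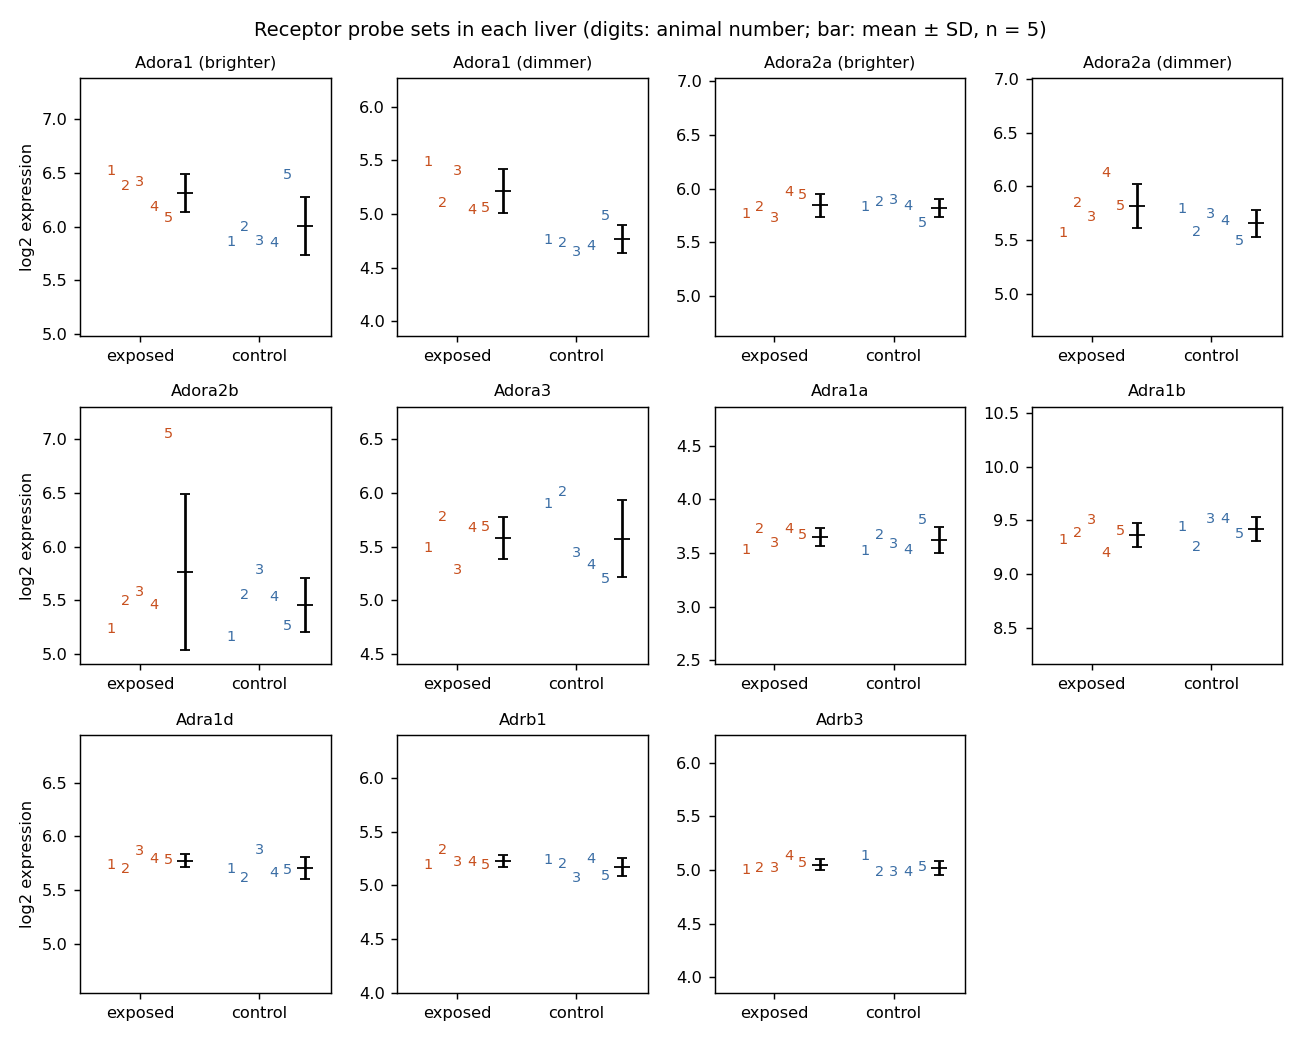
Log2 expression of the 11 receptor probe sets in each liver, with digits for the animal's number in the exposed (orange) and control (blue) group and bars for the mean ± SD of 5 animals. All panels span the same number of log2 units, so that the gap between the groups on the dimmer Adora1 probe set and the single high Adora2b value of exposed animal 5, 7.05, can be compared with the spread of the other receptors.

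The pair of Adora1 probe sets was also compared between animals of a group. With group means removed, they correlated at r = 0.81 over the 10 animals (permutation p = 0.00778, adjusted 0.0217 over 4 relations tested) and rho = 0.67 (permutation p = 0.0380, adjusted 0.0886). Without the animals farthest from the median, exposed animal 1 and control animal 5, r was 0.62 over 8. The probe sets did not give the same gap between the groups, since control animal 5 ranked second of 10 on the brighter and sixth on the dimmer one.

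Control animal 5 was also set apart in RNA quality. Its log2 ratio of 3′ to 5′ control probe sets for Gapdh and beta-actin was 0.73, against 0.49 to 0.60 in exposed livers and 0.51 to 0.63 in the other control livers. Group means of this ratio were 0.56 ± 0.04 in exposed and 0.61 ± 0.08 in control livers (SD, n = 5 each; two-sided exact permutation p = 0.278). With group means removed, the ratio correlated with the brighter Adora1 probe set at r = 0.68 (permutation p = 0.0381, adjusted 0.0507) and rho = 0.58 (permutation p = 0.0897, adjusted 0.12). This relation rested on control animals 1 and 5, without which r was 0.24 over 8. For the dimmer probe set r was 0.27 (permutation p = 0.442, adjusted 0.442), rho was 0.02 (permutation p = 0.969, adjusted 0.969), and r was -0.04 without the same animals. With the ratio as a covariate, the Adora1 differences were 0.43 on the brighter and 0.49 on the dimmer probe set.

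**Figure D3:**
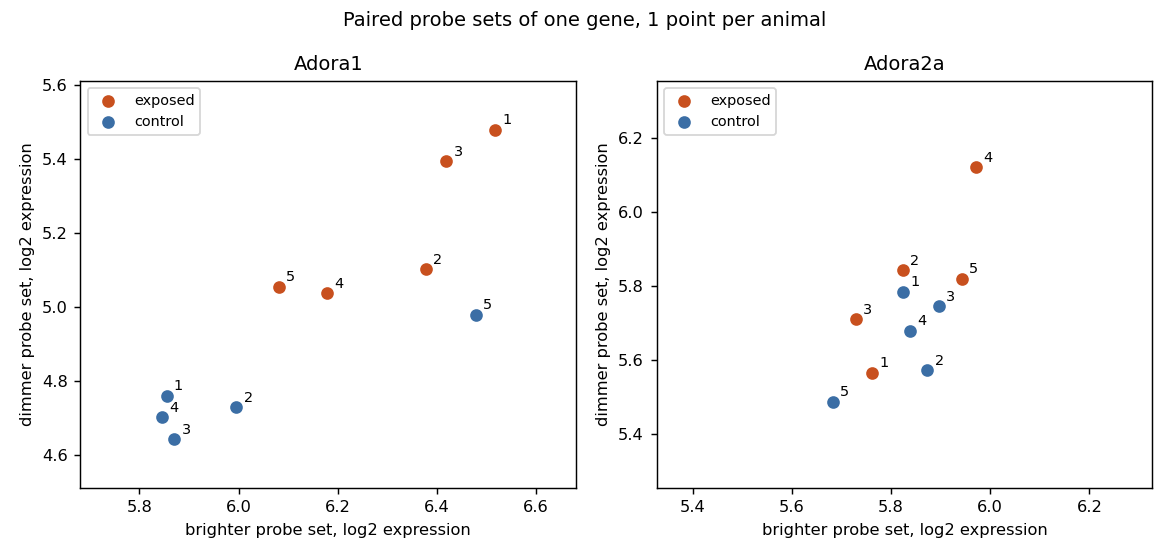
The paired probe sets of Adora1 (left) and of Adora2a (right), with 1 point per animal, its number beside it, exposed in orange and control in blue, both axes in log2 expression. Exposed animals sit at the upper right for Adora1, with control animal 5 shifted to 6.48 on the horizontal axis, whereas the groups intermingle for Adora2a.

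Adora2a, a stimulatory receptor found on immune cells and vessels, had groups that overlapped on both probe sets (gene on chromosome 20, 13315270 to 13332802). The brighter probe set read 5.73 to 5.97 in exposed and 5.68 to 5.90 in control livers, a difference of 0.02 ± 0.07 (SE, 95% interval -0.12 to 0.17), which turned to -0.012 without control animal 5. The dimmer probe set read 5.57 to 6.12 in exposed and 5.49 to 5.79 in control livers, a difference of 0.16 ± 0.10 (-0.05 to 0.37), which was 0.081 without exposed animal 4. With group means removed, the pair correlated at r = 0.75 over 10 animals (permutation p = 0.0109, adjusted 0.0217), rho = 0.66 (permutation p = 0.0443, adjusted 0.0886) and r = 0.71 without exposed animal 3 and control animal 5. Both pairs of probe sets of 1 gene thus passed an adjusted p of 0.05 by r and missed it by rho.

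Adora2b, a stimulatory receptor of low affinity for adenosine, differed by as much as the brighter Adora1 probe set, but in 1 animal. It read 5.24, 5.49, 5.58, 5.46 and 7.05 in exposed animals 1 to 5, against 5.16, 5.55, 5.78, 5.53 and 5.26 in control animals 1 to 5. Exposed animal 5 stood far above the other 9, which lay between 5.16 and 5.78. The difference of 0.31 ± 0.28 (SE, 95% interval -0.30 to 0.91) became -0.014 without exposed animal 5, and its spread within groups was larger than that of 99.2% of probe sets.

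Adora3, the inhibitory A3 receptor, varied between animals within both groups (gene on chromosome 2, 196077042 to 196080686). Its probe set lists the same symbol under more than 1 gene number, and another probe set that names Adora3 together with a second gene was left out. Values were 5.49, 5.78, 5.28, 5.67 and 5.69 in exposed animals and 5.90, 6.01, 5.44, 5.33 and 5.20 in control animals. Control animals 1 and 2 were the highest and control animal 5 the lowest of the 10, so that the control group enclosed the exposed one. The difference was 0.01 ± 0.15 (SE, 95% interval -0.33 to 0.34), or -0.09 without control animal 5 and 0.12 without control animal 2, and the spread within groups exceeded that of 95.4% of probe sets.

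Adra1b, the alpha-1B receptor of hepatocytes, had the highest reading of the receptors, in exposed and control livers alike (gene on chromosome 10, 28756461 to 28874831). It read 9.32, 9.38, 9.50, 9.20 and 9.40 in exposed animals, against 9.44, 9.25, 9.51, 9.51 and 9.38 in control animals. The groups overlapped throughout, with means of 9.36 ± 0.11 in exposed and 9.42 ± 0.11 in control livers (SD, n = 5 each). The difference was -0.06 ± 0.07 (SE, 95% interval -0.22 to 0.10), which is 0.86-fold to 1.07-fold, and it was the only negative one among the 11 probe sets. Without exposed animal 4 it was -0.019.

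The remaining alpha-1 receptors read lower on the scale. Adra1a, the alpha-1A receptor (gene on chromosome 15, 45005648 to 45111416), averaged 3.65 ± 0.08 in exposed and 3.62 ± 0.12 in control livers, below 83.6% of probe sets, and differed by 0.03 ± 0.07 (SE, 95% interval -0.13 to 0.18), or by 0.07 without control animal 5 and 0.000996 without control animal 1. Adra1d, the alpha-1D receptor of large vessels (gene on chromosome 3, 139246333 to 139262331), averaged 5.77 ± 0.06 in exposed and 5.70 ± 0.10 in control livers and differed by 0.07 ± 0.06 (-0.07 to 0.21), or by 0.111 without control animal 3 and 0.046 without control animal 2. For both, the groups overlapped.

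Of the receptor probe sets, those of the beta receptors varied least within groups. Adrb1, the beta-1 receptor of heart (gene on chromosome 1, 265777103 to 265780114), averaged 5.23 ± 0.06 in exposed and 5.17 ± 0.08 in control livers and differed by 0.06 ± 0.06 (SE, 95% interval -0.07 to 0.19), or by 0.036 without control animal 3. Adrb3, the beta-3 receptor of fat (gene on chromosome 16, 71544603 to 71547410), averaged 5.05 ± 0.05 in exposed and 5.02 ± 0.06 in control livers and differed by 0.03 ± 0.06 (-0.09 to 0.15), or by 0.0539 without control animal 1 and 0.00626 without exposed animal 4. Their spread within groups exceeded that of only 7.73% and 2.88% of probe sets. Both read below the median probe set.

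Of the 11 probe sets, 10 had a difference above 0, against 52.0% of all probe sets, and 3 (Adora1 on both probe sets and Adora2b) had a difference of 0.3 or more, against 0.599%. The list was chosen with the higher Adora1 already known, so nothing is read from these counts. Of the 10, 4 changed sign under an alternative, and the Adora2b difference was -0.014 without exposed animal 5. The median difference was 0.06 over the 11 and 0.00 over all probe sets. The 8 probe sets other than those of Adora1 and Adora2b differed by -0.06 to 0.16, with interval bounds from -0.33 to 0.37. Each interval thus excluded a change of the reading beyond 1.29-fold in either direction. Whether these probe sets detected receptor RNA was not tested, so the intervals set no bound on a change of that RNA.

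**Figure D4:**
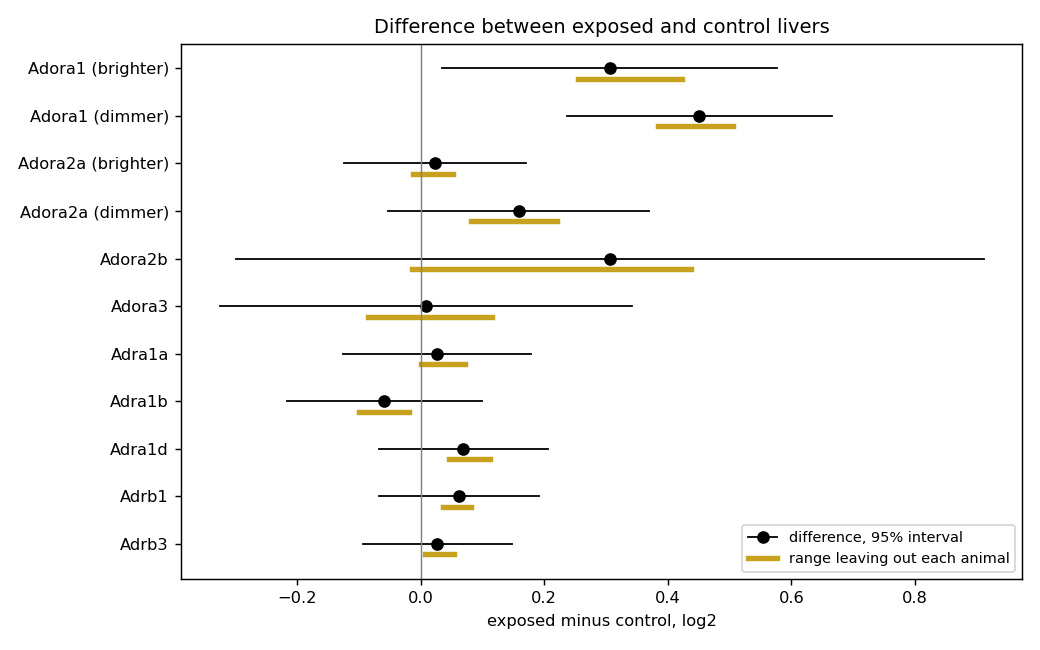
Exposed minus control difference of each receptor probe set on the log2 scale, with its 95% interval from limma (black) and the range of the difference when each animal is left out in turn (yellow). Both Adora1 probe sets stay above 0 in that range, at 0.26 to 0.42 and 0.38 to 0.51, while Adora2b spans -0.01 to 0.44.

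Alpha-2 adrenergic receptors, which couple to inhibitory G proteins as Adora1 does, were measured by 6 probe sets of 3 genes that are not among the members. The brighter Adra2a probe set read 4.07, 4.08, 4.08, 4.13 and 4.17 in exposed animals, against 4.06, 3.91, 4.00, 3.94 and 3.86 in control animals. Every exposed animal was above every control animal, as for 0.57% of all probe sets. The margin was one of hundredths, between exposed animal 1 and control animal 1. This probe set lay at the low end of the scale, below 75.4% of probe sets, and differed by 0.15 ± 0.06 (SE), against 0.03 ± 0.06 on the other Adra2a probe set. The 3 Adra2b probe sets differed by -0.08 to 0.08 and Adra2c by -0.04, and the brightest Adra2b probe set and Adra2c changed sign without 1 animal.

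Around the receptors, 8 lists held 108 entries of which 102 were measured, each gene represented by the brightest of its probe sets. The lists were drawn up with earlier results of these data known. Over all 102 genes 47 were higher and 55 lower in exposed livers, and limma called 0 (background 0.0%). At an unadjusted p under 0.05 there were 1 higher and 3 lower among the 102, against 3.07% and 2.39% of all probe sets. List medians ran from -0.07 to 0.05, against 0.00 over all probe sets.

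Enzymes and transporters that form or remove adenosine were evenly divided, with 9 of 16 higher and a median difference of 0.01. Adk, the kinase that returns adenosine to AMP, had the highest reading at 12.71 ± 0.06 in exposed and 12.76 ± 0.04 in control livers (SD, n = 5 each) and differed by -0.05 ± 0.05 (SE), or -0.0352 without exposed animal 1. The largest differences were those of Alpl, tissue-nonspecific alkaline phosphatase, at 0.12 ± 0.08 and of Dpp4, which binds adenosine deaminase in humans, at -0.10 ± 0.07, neither of them called. Alpl was 0.050 without control animal 2 and Dpp4 was -0.040 without control animal 3.

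For catecholamine synthesis and removal, 5 of 9 measured genes were higher, with a median of 0.01. Sult1a1, a sulfotransferase, read highest and differed by -0.03 ± 0.07 (SE), which was -0.071 without control animal 5 and turned to 0.00748 without exposed animal 5. Slc6a2, the noradrenaline transporter of nerve endings, differed by 0.16 ± 0.10, or 0.0988 without exposed animal 3, and Dbh, which makes noradrenaline, by -0.15 ± 0.10, or -0.072 without control animal 2. Both of these read below the median probe set.

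Among G proteins and adenylyl cyclases, 10 of 15 were higher, with a median of 0.04. Gnas, the stimulatory alpha subunit, read highest at 11.91 ± 0.04 in exposed and 11.90 ± 0.06 in control livers and differed by 0.01 ± 0.05 (SE). It turned to -0.00123 without control animal 2, and both other Gnas probe sets were lower in exposed livers, with differences of -0.059 and -0.0511. Gnai1, an inhibitory alpha subunit of the kind that the A1 receptor uses, had the largest difference of the list at 0.23 ± 0.11, and Gnao1 followed with 0.14 ± 0.07, or 0.0897 without control animal 2. Neither was called.

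Receptor kinases, arrestins and RGS proteins, which end receptor signals, were lower for 8 of 12, with a median of -0.03. Grk6 read highest and also differed most, at -0.14 ± 0.06 (SE), with all 3 of its probe sets lower in exposed livers, and Grk2, a kinase of beta receptors, differed by -0.11 ± 0.07. Effectors of cyclic AMP and calcium were lower for 18 of 28, with a median of -0.02. Creb1, the transcription factor that cyclic AMP activates, differed most at -0.56 ± 0.16, with 6.60 ± 0.39 in exposed and 7.16 ± 0.15 in control livers. Creb1 was not called, and its 3 other probe sets differed by -0.18 to 0.05. Pde4b, a phosphodiesterase, differed by -0.42 ± 0.25, or -0.249 without control animal 2, and Pygl, liver glycogen phosphorylase, by 0.02 ± 0.06 at the highest reading of the list, which turned to -0.00156 without exposed animal 3.

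Genes that cyclic AMP induces in liver were higher for 6 of 11, with a median of 0.05. Pck1, an enzyme of glucose formation, read highest and differed by -0.10 ± 0.10 (SE), or -0.0206 without exposed animal 5. Dusp1, a phosphatase of MAP kinases, differed by 0.52 ± 0.26 and Ppargc1a, a coactivator of glucose formation, by 0.16 ± 0.10, with 1 of 3 Ppargc1a probe sets in the opposite direction. Other receptors that govern glucose output were lower for 7 of 8, with a median of -0.07. Agtr1a, an angiotensin receptor, read highest and differed by 0.06 ± 0.06 or 0.036 without control animal 1, Insr, the insulin receptor, by -0.13 ± 0.11 or -0.0486 without control animal 5, and Avpr1a, a vasopressin receptor, by -0.08 ± 0.23, which turned to 0.0826 without control animal 3.

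**Figure D5:**
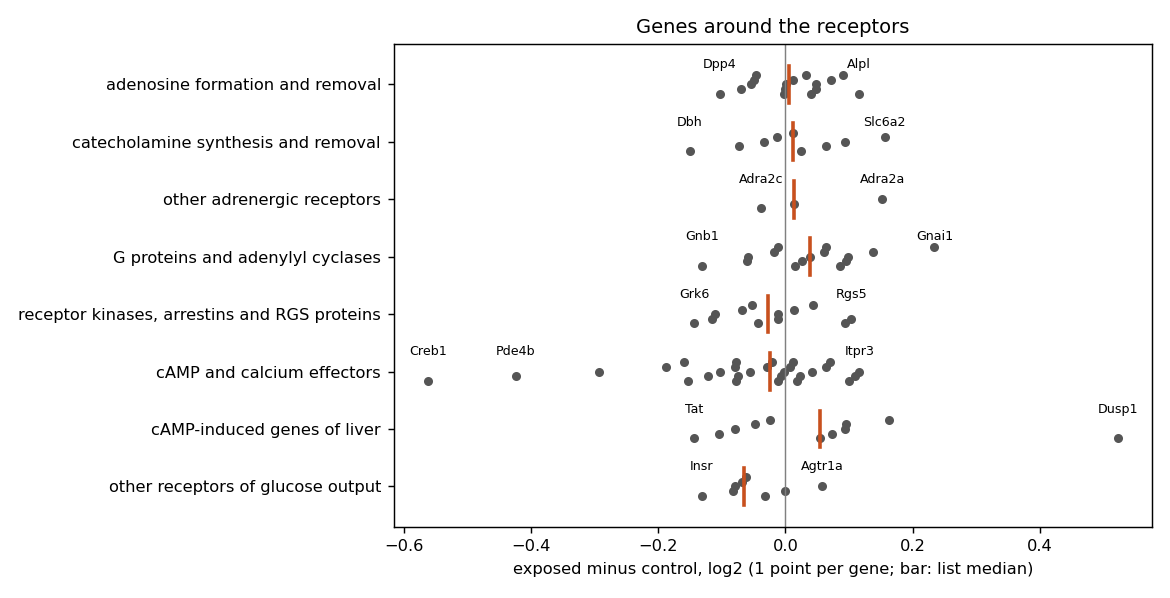
Exposed minus control difference on the log2 scale for each measured gene of the 8 lists around the receptors, with 1 point per gene and an orange bar at the list's median. The medians lie between -0.07 and 0.05, and single genes such as Creb1 at -0.56 and Dusp1 at 0.52 stand farthest out, without passing the test.

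As a check of the tissue label, all 7 hepatocyte markers measured read between 13.5 and 14.99, with Alb, albumin, the highest, and differed by at most -0.04 ± 0.05 (SE), the value of Fgb, a fibrinogen chain, while Apoa1, an apolipoprotein, differed by 0.01 ± 0.07. Kupffer cell and macrophage markers were higher in exposed livers for 8 of 8, with a list mean of 8.46 to 9.41 in exposed and 8.11 to 9.35 in control livers, and the differences of the genes named here were closest to 0 without control animal 5. Cd5l, a secreted macrophage protein, differed by 0.36 ± 0.29 (SE), or 0.158 without that animal, and Aif1 by 0.34 ± 0.26 or 0.13. The other probe set of Cd5l differed by only 0.0794 and that of Aif1 by 0.0838. Clec4f, a Kupffer cell lectin with the highest reading of the list, differed by 0.22 ± 0.21, or 0.0306 without control animal 5. Lymphocyte markers were higher for 8 of 9 (list mean 4.84 to 5.29 in exposed and 4.82 to 5.20 in control livers), and 2 of the 9 read above the median probe set. Cd3d, a T cell receptor subunit, differed by 0.20 ± 0.09 and Cd4, which read highest, by 0.17 ± 0.13 or 0.0849 without control animal 5. Mast cell and granulocyte markers were higher for 5 of 8 (4.49 to 4.93 in exposed and 4.56 to 4.86 in control livers), with 2 of 8 above that median. The mast cell proteases Cpa3 and Tpsb2 differed by 0.25 ± 0.20 and 0.20 ± 0.08, and S100a9, a neutrophil protein with the highest reading, by -0.06 ± 0.19. Cpa3 was 0.132 without exposed animal 4, and S100a9 turned to 0.0933 without exposed animal 3. Ranges of the 2 groups overlapped for each of these lists, limma called 0 of their genes, and their part in the Adora1 difference was not tested.

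Markers of stellate and smooth muscle cells were higher in exposed livers for 6 of 9, endothelial markers for 3 of 6, bile duct markers for 1 of 5, adipocyte markers for 4 of 5 and nerve and glial markers for 5 of 6. Nerve and glial markers, whose cells could carry adrenergic genes, had a list mean of 4.15 to 4.41 in exposed and 4.19 to 4.35 in control livers, with 1 of 6 above the median probe set. Limma called 0 genes of these lists. The genes with the largest differences were Des (0.16 ± 0.08, SE) and Tagln (0.12 ± 0.16) for stellate and smooth muscle cells, Pecam1 (-0.09 ± 0.09) and Lyve1 (0.07 ± 0.10) for endothelium, Spp1 (-0.16 ± 0.19) and Krt19 (-0.09 ± 0.16) for bile ducts, Adipoq (0.09 ± 0.07) and Cidec (-0.08 ± 0.10) for adipocytes, and Syt1 (0.14 ± 0.09) and Gfap (0.12 ± 0.06) for nerve and glia. Lyve1 and Cidec also read highest in their lists, as did Col3a1 (0.03 ± 0.08), Epcam (0.02 ± 0.11) and Mbp (-0.07 ± 0.17) in theirs. Leaving out 1 animal changed the sign for Tagln, Lyve1, Krt19, Epcam and Mbp.

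The probe sets most like the brighter Adora1 probe set across the 10 arrays, with group means removed, named Ankrd28 (r = 0.97), Jmjd1c (0.97), Vps53 (0.95), Ptp4a2 (0.94) and Entpd5 (0.94). Entpd5, which hydrolyses nucleoside diphosphates, was also in the list of adenosine formation, but there it was read by a different, brighter probe set. Those least like it named Fstl1 (-0.96), Lgmn (-0.94) and LOC102550331 (-0.94). With the dimmer Adora1 probe set the same 5 correlated at 0.62 to 0.85. Among 20826 named probe sets of other genes, 25 reached an r of 0.9 or more with the brighter probe set and 15 reached -0.9 or less, and with the dimmer one these counts were 8 and 13. The 5 most like the dimmer probe set named Tmem63a (0.96), Cluh (0.95), Hdgfl2 (0.94), Nadk2 (0.93) and C2cd2 (0.92), and the 3 least like it Prpmp5 (-0.94), Cadm3 (-0.94) and Arpp21 (-0.93). Control animal 5 stood apart from the other control animals on the brighter Adora1 probe set (6.48, others 5.84 to 5.996). No r without this animal is given here, so how far these values rest on it is not shown. Such correlations over 10 arrays are given as a description only.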

How the data were processed

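Liver RNA from 10 rats, 5 exposed and 5 control, was hybridised to Affymetrix 3′ expression arrays. The deposited values are log2 expression per probe set. The submitters' processing notes name RMA and R 2.8.1 for the authors' step from probes to probe sets. RMA subtracts background, normalizes the arrays to one another and summarises probes, so a shift shared by most genes is removed. That the scale is log2 follows from the range of 2.19 to 14.999. The array annotation used by the authors is not given in the sources used here.

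Of 31099 probe sets, 57 control sets were left out of the tests. By the platform annotation, 20837 probe sets named 1 symbol, 425 several and 9780 none here. Of the 20837, 20769 were found by gene number in a RefSeq table for GRCr8, and 0 symbols changed. The arrays had medians of 5.43 to 5.49 and correlated in pairs at 0.991 to 0.996, and the number of arrays limits the precision.

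Groups were compared by the two-sided moderated test of limma 3.58.1 under R 4.3.3, with Benjamini-Hochberg adjustment across all probe sets and a threshold of 0.05, checked on simulated data. Correlations between animals used group means removed and 100000 permutations. Members, lists and tests were chosen with earlier results of these data known. Named were all members and, per list, the 2 genes with the largest difference and the 1 with the highest mean, and the 5 most and 3 least alike to the brighter Adora1 probe set by correlation. Those of the dimmer one were added after seeing the data. The alternatives were a replicate block, centring on array medians, quantile normalization, leaving out low values, array weights, a trended and robust prior, RNA quality as a covariate, each array left out and other limits for the low end of the scale.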

Additional observations from a re-analysis of the deposited data

Results flagged for a closer look

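Among 22 groups of 5 animals (11 receptor probe sets in exposed and control livers), 3 held an animal whose gap to its nearest neighbour exceeded 0.71 of the range of the group, where chance gives about 1 in 20. Exposed animal 5 read 7.05 for Adora2b (others 5.24 to 5.58). Exposed animal 2 read 5.33 for Adrb1 (others 5.19 to 5.21). Control animal 5 read 6.48 on the brighter Adora1 probe set (others 5.84 to 5.996).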

How the results depend on the processing

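The alternatives were planned, except the other Adora1 probe set and the limit without Myh1, which were chosen after seeing the data. Of 176 alternative differences of the 11 receptor probe sets, 0 moved by more than the spread within groups. Leaving out 1 of 5 animals cannot move a difference that far. The replicate block and the trended and robust prior leave it unchanged, so no stability is read from that count. Signs changed in 16 of the 176, which belonged to 4 probe sets (the brighter one of Adora2a and those of Adora2b, Adora3 and Adra1a). The smallest limma adjusted p among all 176 was 0.746. The brighter Adora1 probe set differed by 0.28 after centring, by 0.26 to 0.42 without each animal in turn and by 0.31 with the replicate number as a block, against 0.45 on the other probe set. The block moved no call. Samples of the same number correlated at -0.07 to 0.09 in their deviations, which gave no sign of a pairing by number but cannot exclude one. Over all probe sets the number that passed was 0 in every alternative except leave-one-out (0 to 1), with 1, which is no receptor, without exposed animal 1. The count of receptor probe sets above the low end of the scale was 7 with the median probe set as limit, 10 with the lower quartile, 6 to 7 without each animal, 0 with the 90th percentile of genes of other organs and 2 without the Myh1 probe sets, which raised that limit. Signal over background is unknown, so that how many of these probe sets were too dim to measure a difference is unknown.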

Other observations

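The 5 Myh1 probe sets, named by the platform annotation for a myosin heavy chain of skeletal muscle, read 8.30 to 12.0 in these livers, and the arrays do not show what they detect. The probe set most like Adora2b across animals, chosen after its values were seen, named Gnrhr, the receptor of gonadotropin-releasing hormone (r = 0.97 over 10 arrays with group means removed). It read 3.78 in exposed animal 5, 3.33 to 3.37 in the other exposed animals and 3.35 to 3.46 in control animals, at the low end of the scale.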
